A study of Mus musculus with 8 samples.

Results

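The ends of mouse chromosomes 2 to 19 next to the centromere, up to position 10 Mb, were examined in 8 Hi-C compartment profiles of mouse embryonic stem cells (mESCs). Members were the 100-kb bins of these 18 chromosomes that start below 10 Mb (mm10) and have a score in all 8 libraries. They numbered 1247 of 23972 bins scored on the autosomes, with 64 to 70 bins per chromosome. Another 6 bins in the same interval, all on chromosome 14, lacked a score in at least 1 library and were left out. The rule uses position alone.

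Hi-C counts contacts between DNA loci in fixed nuclei, and the score of a bin is its value in the first eigenvector of the contact map of its chromosome. Positive scores mark the A compartment, which holds active chromatin, and negative scores mark the B compartment. All 8 libraries came from mESCs grown on gelatin with LIF, and each group had 1 library. In the #33-6 Setdb1 conditional knockout line, untreated cells are called Setdb1 WT. Setdb1 WT + UNC received 2 µM UNC0642 for 3 days, Setdb1 KO received 800 nM 4-OHT for 5 days, and Setdb1 KO + UNC received 4-OHT for 2 days and then UNC0642 for 3 days. Suv39h WT (clone ADF1-26) and Suv39h DKO (clone ADF157, without Suv39h1 and Suv39h2) were used untreated or with the same UNC0642 treatment. For the Suv39h lines, clone and genotype cannot be told apart. In the Setdb1 line, only the KO libraries received 4-OHT, so SETDB1 loss and 4-OHT exposure cannot be told apart. With 1 library per group, all p-values below come from treating libraries of other groups as the measure of spread. A contrast of single libraries is given without a test.

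Mouse autosomes are acrocentric, so that the centromere and its flanking heterochromatin sit at one end, and the assembly begins after a gap that stands for these unassembled repeats. The pericentromeric repeat is the major satellite, which is packed into chromocenters and is the classical target of H3K9 trimethylation by SUV39H1 and SUV39H2. SETDB1 trimethylates H3K9 mainly at retroelements and silenced genes, whereas G9a and GLP, the targets of UNC0642, deposit H3K9 dimethylation along broad inactive domains.

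The sequence at the edge shows how close the scored bins lie to the satellite. The assembly gap ahead of the first base was 3000000 bases on 12 of the 18 chromosomes, 3050000 on 4 and 3100000 on 2. The first bases after the gap on chromosomes 9 and 11 are printed because these edges hold satellite repeats, and those on chromosomes 13 and 19 because they do not start with them. All are from the plus strand of GRCm38.p6, the assembly of mm10 coordinates. Capitals on chromosome 9 mark the 149 of 234 bases that are the same in the next 234-base unit. The positions are chr9:3000001-3000234, chr11:3100001-3100234, chr13:3000001-3000060 and chr19:3000001-3000060.
chr9 edge: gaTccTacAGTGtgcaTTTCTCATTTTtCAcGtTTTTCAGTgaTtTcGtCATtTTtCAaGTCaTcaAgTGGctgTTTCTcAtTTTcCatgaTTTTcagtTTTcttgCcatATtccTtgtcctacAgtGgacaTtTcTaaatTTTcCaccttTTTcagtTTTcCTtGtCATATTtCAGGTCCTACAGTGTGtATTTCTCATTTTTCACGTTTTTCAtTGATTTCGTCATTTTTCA
chr11 edge: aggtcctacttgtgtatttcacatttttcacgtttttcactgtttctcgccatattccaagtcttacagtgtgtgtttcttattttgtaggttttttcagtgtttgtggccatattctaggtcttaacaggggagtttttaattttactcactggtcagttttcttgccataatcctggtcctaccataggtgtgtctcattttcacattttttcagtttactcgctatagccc
chr13 edge: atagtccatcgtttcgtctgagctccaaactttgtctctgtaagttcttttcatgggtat
chr19 edge: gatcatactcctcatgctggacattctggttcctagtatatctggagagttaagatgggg
Over the first 3000 bases of chromosome 9, 76.1% of bases matched the base 234 positions further on, the repeat length of the major satellite. The 414 16-base words of the chromosome 9 unit, on both strands, were then counted in each bin. At least 50 matches were found in 9 bins of all autosomes, of which 4 were centromere-proximal, and their scores are described further below.

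Before any treatment effect was read, the libraries were compared with each other. Setdb1 WT + UNC stood apart from its own line. Over the proximal bins its root mean square (RMS) score difference was 0.00834 from Setdb1 WT and 0.0105 from Setdb1 KO + UNC, the nearest and the farthest of its line. It was closer to Suv39h WT + UNC, at 0.00713, and to Suv39h DKO + UNC, at 0.00738. The other libraries of the Setdb1 line differed among themselves by 0.00466 to 0.00528. In the other 20801 bins of chromosomes 2 to 19, Setdb1 WT + UNC was likewise nearest to Suv39h WT + UNC (0.00559), with Setdb1 WT almost as near (0.00566). The line of the cells in that library was not tested, and the main contrasts, shifts and tests below that rest on it are given without it as well.

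The mean score of the proximal bins followed the same division. In the Setdb1 line, it was 0.00341 for WT, 0.00412 for KO and 0.00416 for KO + UNC, but 9.06e-05 for WT + UNC. In the Suv39h lines, it was 0.000724 for WT, 0.000520 for WT + UNC, 0.000481 for DKO and 0.000808 for DKO + UNC. Thus, 3 libraries of the Setdb1 line were high, and the fourth lay below all 4 Suv39h libraries. The spread over the bins within a library was far larger, with an SD of 0.0223 to 0.0234 over 1247 bins. The other bins of the same chromosomes spread more widely, with an SD of 0.0276 to 0.0280.

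The share of proximal bins in the A compartment was 48.7% in Setdb1 WT (95% Wilson interval 45.9 to 51.5) and 40.6% in Setdb1 WT + UNC (37.9 to 43.3). Both KO libraries of the line held slightly more, at 50.5% without and 50.8% with UNC0642. The Suv39h libraries held 45.7% (WT), 44.1% (WT + UNC), 46.7% (DKO) and 47.7% (DKO + UNC). In the other bins of the same chromosomes, the share of A ranged only from 44.2% to 46.2%. The intervals treat bins as independent, which neighbours are not, and cover no variation between cultures.

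The proximal bins changed sides between libraries more often than the rest. Of the 1247 bins, 422 (33.8%) were in A and 480 (38.5%) in B in all 8 libraries, and 345 (27.7%) were mixed. In the other bins of chromosomes 2 to 19, 11.7% were mixed. Over the 7 libraries without Setdb1 WT + UNC, 25.7% of the proximal and 11.2% of the other bins were mixed. Always-A proximal bins had 17.1 protein-coding start sites per Mb and 44.5% GC, against 4.25 per Mb and 39.7% GC in always-B bins. The mixed bins resembled the B bins in gene density (4.12 per Mb) and lay between in GC (41.2%). Bins in B in a single library were most frequent for Setdb1 WT + UNC, with 20 bins (1.60%), compared with 2 to 9 for each of the other libraries. In the other bins of chromosomes 2 to 19, that library had 59 (0.284%). There, Setdb1 KO + UNC had the most, with 80 (0.385%).

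Scores varied with the distance from the first scored bin in every library. In Setdb1 WT, the mean was 0.00631 in the first 1 Mb, peaked at 0.0114 between 1 and 2 Mb, and fell to 0.00591 and 0.00188 in the following classes. It was negative between 4 and 5 Mb (-0.00342) and between 6 and 7 Mb (-0.00290). The peak at 1 to 2 Mb was present in all 8 libraries, with 0.00676 in Suv39h WT, 0.00694 in Suv39h DKO and 0.0123 in Setdb1 KO. Start sites were also densest in that class, at 13.2 per Mb, and sparsest between 6 and 7 Mb, at 3.22 per Mb.

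The very first bin differed from what follows. Its mean over the 18 chromosomes was -0.0145 in Setdb1 WT and between -0.0184 and -0.0126 across the 8 libraries, and it was in A on 1 to 4 chromosomes per library. The lowest first bins were those of chromosome 16 (-0.0626 in Setdb1 WT) and chromosome 19 (-0.0574), and the highest was that of chromosome 11 (0.0268). On average, the scored sequence thus opened in B and had passed into A by the second Mb.

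**Figure D1:**
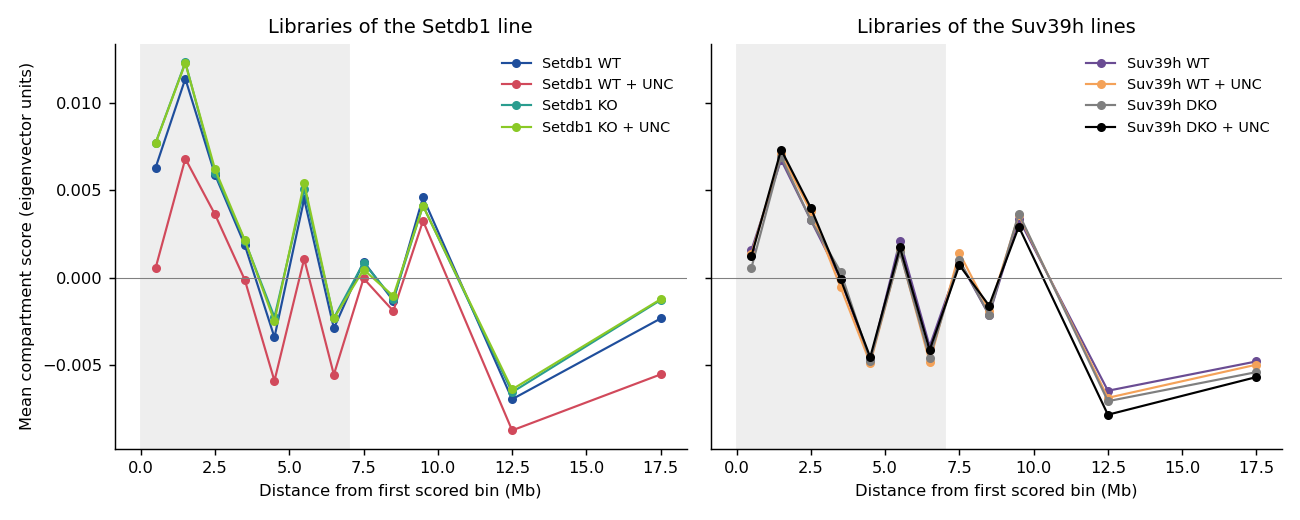
Mean compartment score (eigenvector units) against the distance from the first scored bin of chromosomes 2 to 19, in classes of 1 Mb and, beyond 10 Mb, of 5 Mb. Each line is 1 library and the grey area marks the centromere-proximal bins. Setdb1 WT + UNC runs below the other 3 libraries of its line, at 0.000560 in the first 1 Mb against 0.00631 in Setdb1 WT, and close to the Suv39h libraries.

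UNC0642 in Setdb1 WT cells was accompanied by a shift of the proximal bins toward B. The score fell by at least 0.01 in 197 of 1247 bins (15.8%), against 4.62% of all scored bins, and rose in 29 (2.33%), against 3.51%. In the other bins of chromosomes 2 to 19, falls (4.07%) and rises (3.75%) were about balanced. From A to B passed 136 proximal bins (10.9%, against 2.45% of all bins), and from B to A passed 35 (2.81%, against 2.67%). The mean change was -0.00331 (SD 0.00766 over bins), compared with 0.000209 in the other bins. In the last 5 Mb of the same chromosomes, it was 0.000335, so the opposite ends did not share the fall.

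In the other 3 backgrounds, rises and falls after UNC0642 were closer to balance. The Setdb1 KO pair also differed in 4-OHT, given for 5 days without and 2 days with UNC0642. Both differences cannot be told apart. In Setdb1 KO cells, UNC0642 was followed by a rise in 25 bins (2.00%, against 0.755% of all bins) and a fall in 25 (2.00%, against 0.934%). In Suv39h WT cells, 41 bins rose (3.29%, against 2.26%) and 56 fell (4.49%, against 2.53%). In Suv39h DKO cells, 66 rose (5.29%, against 3.04%) and 62 fell (4.97%, against 3.69%). The mean changes were 3.99e-05, -0.000204 and 0.000327. The response to UNC0642 was not shown to differ between the lines, because the test of that difference called none of the 1247 bins and none of the 18 first 10-Mb tiles (lowest limma adjusted p = 0.979 for the tiles), against 0% of all bins and 0.398% of all tiles.

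Each chromosome's scores average 0, so a shift was measured as the mean change of the proximal bins minus that of the other bins of the chromosome, averaged over 18 chromosomes. For UNC0642, this was -0.00352 in Setdb1 WT, 4.17e-05 in Setdb1 KO, -0.000185 in Suv39h WT and 0.000356 in Suv39h DKO. The mean of the 4 pairs was -0.000827 (exact two-sided sign-flip test, n = 4, p = 0.75; smallest possible 0.125). Without the Setdb1 WT pair it was 7.10e-05. Thus, a shift in 1 of 4 backgrounds carried the average.

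**Figure D2:**
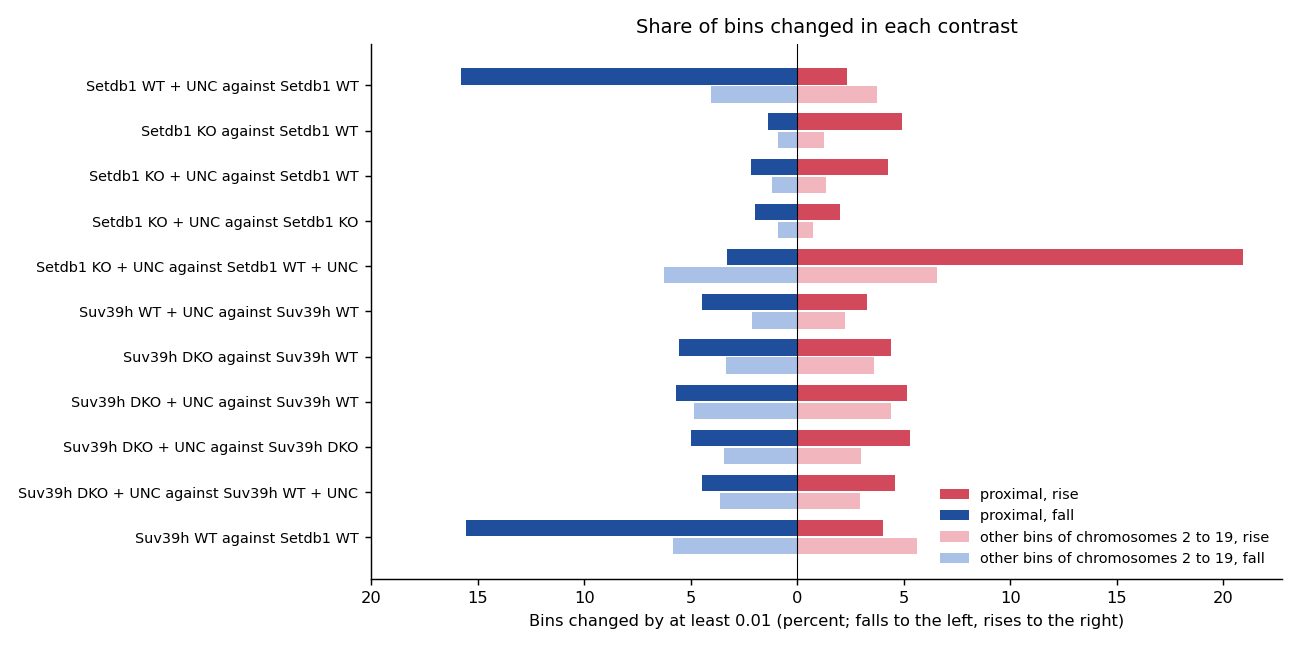
Percent of bins whose score rose (right) or fell (left) by at least 0.01, in 11 contrasts of single libraries. Dark bars are the 1247 proximal bins, pale bars the 20801 other bins of chromosomes 2 to 19. The 3 largest shares belong to Setdb1 WT + UNC against Setdb1 WT (15.8% fell), Setdb1 KO + UNC against Setdb1 WT + UNC (20.9% rose) and Suv39h WT against Setdb1 WT (15.6% fell).

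Loss of SETDB1, which cannot be told apart from 4-OHT exposure, was compared with and without UNC0642. In untreated cells, 61 bins rose (4.89%, against 1.4% of all bins) and 17 fell (1.36%, against 0.88%), with a mean change of 0.000715. Under UNC0642, 261 bins rose (20.9%, against 7.16%) and 41 fell (3.29%, against 5.79%), with a mean change of 0.00407. Of the proximal bins, 162 (against 3.14% of all bins) passed from B to A and 35 (against 3.2%) from A to B. The second of these contrasts uses Setdb1 WT + UNC as its control. Setdb1 KO + UNC set against Setdb1 WT, which leaves that library out, showed 53 rising bins (4.25%, against 1.46%) and 27 falling ones (2.17%, against 1.18%). The proximal shift was 0.000775 without and 0.00434 with UNC0642 (mean 0.00256, exact two-sided sign-flip test, n = 2, p = 0.5, the smallest that 2 pairs allow).

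After loss of SUV39H1/2, rises and falls of the proximal bins were closer to balance. In untreated cells, 55 bins rose (4.41%, against 3.64% of all bins) and 69 fell (5.53%, against 3.73%). Under UNC0642, 57 rose (4.57%, against 2.98%) and 56 fell (4.49%, against 3.86%). With both changes together, against Suv39h WT, 64 rose (5.13%, against 4.53%) and 71 fell (5.69%, against 5.27%). The proximal shift was -0.000243 without and 0.000298 with UNC0642 (mean 2.75e-05, exact two-sided sign-flip test, n = 2, p = 1).

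The untreated wild-type cells of both lines also differed. In Suv39h WT, 194 proximal bins were lower than in Setdb1 WT by at least 0.01 (15.6%, against 6.27% of all bins) and 50 were higher (4.01%, against 5.68%). Bins in A in Setdb1 WT and in B in Suv39h WT numbered 95 (7.62%, against 2.59%), and 58 lay the other way (4.65%, against 2.94%). The difference was larger in bins with a protein-coding start site, where the mean was -0.00488 over 520 bins, compared with -0.00110 over the 727 bins without one. In the other bins of chromosomes 2 to 19, bins with a start site were likewise lower, at -0.000973 against 0.00103. For UNC0642 in Setdb1 WT cells, the mean change was -0.00328 in bins with and -0.00334 in bins without a start site, and in the other bins -0.000599 and 0.000804. These contrasts share Setdb1 WT as their reference.

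By classes of 1 Mb, both falls were deepest in the first and second Mb. For Setdb1 WT + UNC against Setdb1 WT, the mean change was -0.00575 in the first 1 Mb, -0.00459 in the second and -0.00228 in the third, and then ranged from -0.00343 to -0.00199 up to 7 Mb. In the first 1 Mb, it was negative on 15 of 18 chromosomes. In the very first bins, it was -0.00385, and -0.000640 for Suv39h WT against Setdb1 WT, closer to 0 than the means of the first 1 Mb. For Suv39h WT against Setdb1 WT, the corresponding values were -0.00473, -0.00465 and -0.00260, and the seventh class had -0.00103. The fall was not limited to the chosen interval. Between 15 and 20 Mb, the change in Setdb1 WT + UNC was -0.00321 and negative on all 18 chromosomes, whereas it was -0.000967 between 7 and 8 Mb and -0.000136 between 20 and 30 Mb. In the Suv39h contrasts, the class means stayed between -0.00102 and 0.000709 over the first 7 Mb.

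**Figure D3:**
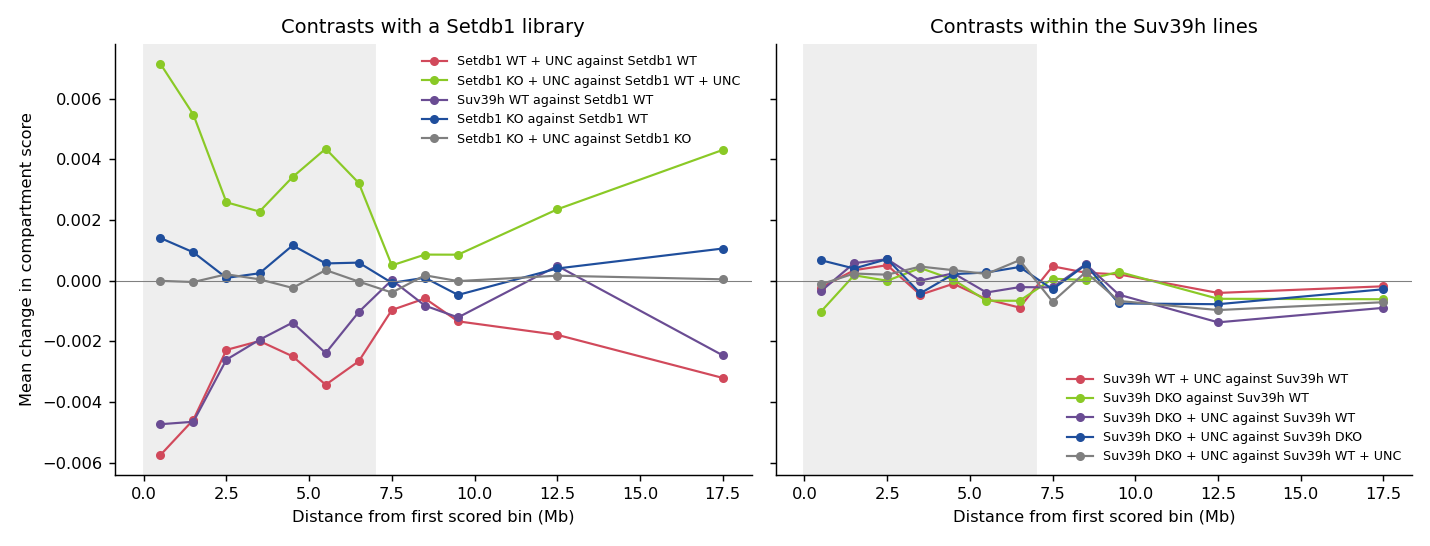
Mean change in compartment score against the distance from the first scored bin, for 5 contrasts with a Setdb1 library (left) and 5 contrasts within the Suv39h lines (right). The grey area marks the proximal bins. On the left, Setdb1 WT + UNC and Suv39h WT start at -0.00575 and -0.00473, are closer to 0 between 7 and 10 Mb and lower again between 15 and 20 Mb, and on the right all lines lie between -0.00102 and 0.000709 over the first 7 Mb.

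The proximal scores differed more between chromosomes than between libraries. Chromosome 19, with 227 protein-coding genes in the interval, had the highest mean in all 8 libraries, between 0.0251 (Suv39h DKO + UNC) and 0.0320 (Setdb1 KO + UNC). Chromosome 14 had the lowest, between -0.0333 (Suv39h WT) and -0.0204 (Setdb1 WT + UNC), although it holds 112 genes there. Chromosome 7, with 141 genes, was negative throughout (-0.0112 to -0.00665). On chromosome 14, the 4 Suv39h libraries had -0.0333 to -0.0319 and the 4 Setdb1 libraries -0.0219 to -0.0204, so Setdb1 WT + UNC lay with its own line here. How many other chromosomes separate both lines was not counted. Between Suv39h WT and Setdb1 WT, 12.0% of all scored bins differed by at least 0.01.

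Chromosomes 9, 13 and 18 changed most in the contrasts with Setdb1 WT + UNC. On chromosome 18, the proximal mean of the Setdb1 line was 0.0116 for WT, 0.0162 for KO and 0.0163 for KO + UNC, but -0.00221 for WT + UNC. In the Suv39h libraries, it was 0.00395, 0.00331, 0.00384 and 0.00237 (WT, WT + UNC, DKO, DKO + UNC). Setdb1 WT + UNC was thus the lowest, and the other 3 libraries of the Setdb1 line were the highest.

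On chromosome 9, 32.9% of the proximal bins were in A in Setdb1 WT, and 45.7% and 41.4% in the KO cells without and with UNC0642, but 5.71% in Setdb1 WT + UNC. The Suv39h libraries held 7.14% to 10.0%. The mean score on this chromosome was -0.0148 in Setdb1 WT + UNC, -0.00514 in Setdb1 WT and -0.0139 to -0.0123 in the Suv39h libraries. On chromosome 13, the mean of the Setdb1 line was -0.000124 for WT, 0.00182 for KO and 0.00353 for KO + UNC, against -0.00980 for WT + UNC. The Suv39h libraries had -0.00883 to -0.00663. On all 3 chromosomes, Setdb1 WT + UNC was thus the lowest of the 8 libraries.

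These 3 chromosomes held 107 of the 197 bins that fell in Setdb1 WT + UNC (54.3%) and 78 of the 194 that were lower in Suv39h WT. Chromosome 14 alone held another 34 of these 194 bins, and its mean difference of -0.0121 was the lowest of the 18 chromosomes in that contrast. Over their 210 bins, the mean change in Setdb1 WT + UNC was -0.0110, compared with -0.00175 over the 1037 bins of the other 15 chromosomes. In the first 1 Mb, the corresponding changes were -0.0161 and -0.00364, so the fall next to the edge was present in both sets. After SETDB1 loss in untreated cells, the means were 0.00304 and 0.000245.

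**Figure D4:**
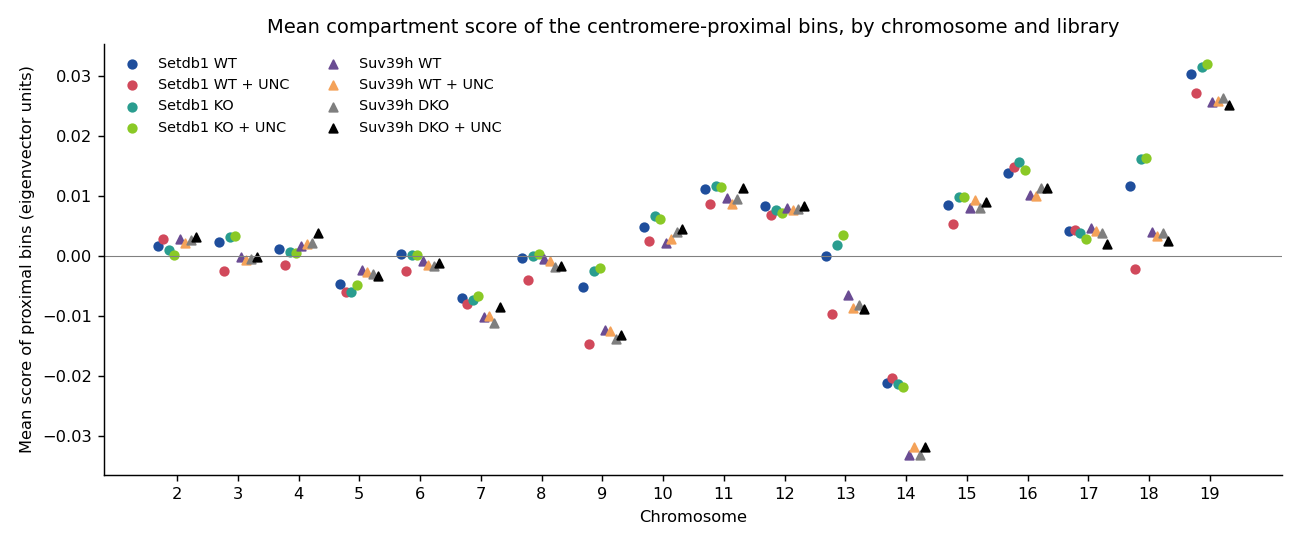
Mean compartment score (eigenvector units) of the proximal bins of each chromosome, 64 to 70 bins per point. Circles are the 4 libraries of the Setdb1 line and triangles the 4 Suv39h libraries. On chromosomes 9, 13 and 18, Setdb1 WT + UNC lies apart from its line at -0.0148, -0.00980 and -0.00221, and on chromosome 14 both lines separate.

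A linear model (limma) over all 8 libraries was fitted to all 23972 bins and to 251 tiles of 10 Mb, of which the first tile of each of the 18 chromosomes holds the proximal bins. No proximal bin or tile was called at an adjusted p under 0.05 for UNC0642, SETDB1 loss or SUV39H1/2 loss, and 0% of all bins and tiles were called. At an unadjusted p under 0.05, 94 proximal bins (7.54%, against 4.95% of all bins) passed for UNC0642 and 110 (8.82%, against 9.6%) for SUV39H1/2 loss. For SETDB1 loss, 196 proximal bins passed with a rise, against 5.16% of all bins, and 28 with a fall, against 3.94%. These counts include Setdb1 WT + UNC. Without the Setdb1 WT pair, 102 proximal bins passed for UNC0642 (against 5.57% of all bins), of which 54 rose and 48 fell, whereas 25 rose and 69 fell with all pairs. When Setdb1 WT + UNC was left out of the fit for SETDB1 loss, 76 proximal bins passed with a rise, against 2.19% of all bins, and 24 with a fall, against 1.6%.

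Among the tiles, 8 of the 18 proximal ones passed an unadjusted p under 0.05 for SETDB1 loss, all with a rise, against 21.5% of all tiles. None of the 18 did so for UNC0642, against 7.17% of all tiles, or for SUV39H1/2 loss, against 14.3%. The largest rise after SETDB1 loss was on chromosome 18 (0.0115 ± 0.00274, SE, limma adjusted p = 0.153), followed by chromosome 9 (0.00766) and chromosome 13 (0.00763). From the untreated pair alone, without Setdb1 WT + UNC, these rises were 0.00458, 0.00259 and 0.00194. The largest falls in the fit to all 8 libraries were on chromosomes 2 (-0.00166), 14 (-0.000877) and 17 (-0.000839), and from the untreated pair alone they were -0.000680, -0.000260 and -0.000268. In the fit to the 7 libraries without Setdb1 WT + UNC, the rise on chromosome 18 was 0.00498 ± 0.000775 (SE) with a limma adjusted p of 0.0140, the only one of the 251 tiles called (0.398%). In that fit, 3 of the 18 proximal tiles passed an unadjusted p under 0.05, those of chromosomes 9, 13 and 18, against 4.78% of all tiles.

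For UNC0642, the largest falls of the proximal mean were on chromosomes 18 (-0.00394), 13 (-0.00268) and 9 (-0.00219). Without the Setdb1 WT pair, they were -0.000653, -0.000351 and 0.000293. The largest rises were on chromosomes 14 (0.000731) and 7 (0.000608), and then on chromosome 2 (8.46e-05). Without that pair, these were 0.000707, 0.00119 and -0.000282, so that chromosome 2 changed sign. For SUV39H1/2 loss, chromosomes 10 (0.00176), 16 (0.00124) and 11 (0.00122) rose most and chromosomes 17 (-0.00151), 9 (-0.00116) and 8 (-0.00106) fell most. Both pairs moved the same way on each of these chromosomes except chromosome 11. None of these tiles passed the test.

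Few bins moved the same way by 0.01 or more throughout the pairs of a comparison. For SETDB1 loss, 39 proximal bins rose in both pairs (3.13%, against 0.567% of all bins) and 1 fell (0.0802%, against 0.129%). For SUV39H1/2 loss, 4 rose (0.321%, against 0.35%) and 11 fell (0.882%, against 0.509%). For UNC0642, 1 bin rose in all 4 pairs, the only such bin on the autosomes (0.00417%), and none fell (0%). The 39 bins after SETDB1 loss lay on 9 chromosomes, with 25 of them on chromosomes 9, 13 and 18 (8, 6 and 11 bins), where Setdb1 WT + UNC, the control of one pair, was the lowest library. Among the 39 were 3 runs of 2 adjacent bins.

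The strongest run after SETDB1 loss was chr15:4900001-5100000, which overlaps Mroh2b, the complement component gene C7 and Card6, a gene with a caspase recruitment domain. The WT cells of the Setdb1 line had mean scores of 0.0117 without and -0.000817 with UNC0642 there, and the KO cells had 0.0243 and 0.0226. In the Suv39h libraries, it was between -0.00326 and 0.00393. The pair without Setdb1 WT + UNC therefore rose by 0.0125.

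The next run, chr10:7100001-7300000, overlaps Cnksr3, which encodes a scaffold protein of Ras signalling. There, the WT cells of the line had 0.0172 without and 0.0136 with UNC0642, and the KO cells had 0.0337 and 0.0256. The third run, chr18:5800001-6000000, overlaps no protein-coding gene and rose from 0.0139 to 0.0253 without and from 0.00877 to 0.0224 with UNC0642. In all 3 runs, both KO libraries were above both WT libraries of the line, an order that the choice of runs fixed within each pair. The lowest adjusted p among their bins was 0.274. The single falling bin was chr7:9100001-9200000, at -0.0365 and -0.0314 in the WT and -0.0472 and -0.0418 in the KO libraries.

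Of the 15 bins that moved the same way in both pairs after SUV39H1/2 loss, 5 lay on chromosome 14, 1 of 18 chromosomes. Of these 5, 4 were among the 3 strongest in each direction. The share of such bins was near that of all bins for rises (0.321%, against 0.35%) and higher for falls (0.882%, against 0.509%). The part of chromosome 14 among such bins outside the interval was not counted. The bin at chr14:4600001-4700000 fell from -0.0579 to -0.0899 without and from -0.0549 to -0.0692 with UNC0642. The bin at chr14:7600001-7700000 fell from -0.0187 to -0.0407 and from -0.0104 to -0.0272, and chr17:6500001-6600000 fell from 0.000658 to -0.0171 and from -0.0120 to -0.0279. The strongest rises were at chr14:7000001-7100000 (from -0.0336 to -0.0132 and from -0.0360 to -0.0251), chr14:6300001-6400000 and chr7:7500001-7600000. The last of these overlaps Vmn2r33, a vomeronasal receptor gene.

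The bin that rose in all 4 pairs with UNC0642 was chr14:6700001-6800000. It rose by 0.0117 in Setdb1 WT, 0.0109 in Setdb1 KO, 0.0103 in Suv39h WT and 0.0248 in Suv39h DKO, and stayed in B in all 8 libraries (-0.0770 to -0.0261; limma adjusted p = 0.807). It overlaps the predicted genes Gm8050, Gm3636 and Gm8362. Chromosome 14 also held all 6 excluded bins, and 52.1% of the bases in its proximal bins were repeat-masked, the highest share of the 18 chromosomes.

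The proximal bins held 1080 of 20807 protein-coding genes (5.19%). Of the gene families searched by symbol, Vmn2r, the vomeronasal receptors, had 22 of 119 genes there, all on chromosome 7. The 17 bins with a Vmn2r gene were deep in B, with means between -0.0407 and -0.0369 in all 8 libraries. Zfp genes, which encode zinc finger proteins, numbered 25 of 388 (6.44%), and 16 of the 25 were on chromosome 7. Their 15 bins were in A on average (0.0171 to 0.0253). Vmn1r genes numbered 14 of 208 (6.73%) and Olfr genes 10 of 1128 (0.887%), against 5.19% of all genes. No Serpin, Krt, Defa, Defb, Skint or Hist gene lay in the interval.

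Of 29 genes for H3K9 methylation and heterochromatin, 28 were found on the autosomes and 2 lay in the interval. Suv39h2, which encodes one of the enzymes deleted in the DKO cells, lies in the bin chr2:3400001-3500000. Its scores were 0.0101, 0.0123, 0.0129 and 0.0112 in Setdb1 WT, WT + UNC, KO and KO + UNC, and 0.00734, 0.0107, 0.00598 and 0.00909 in the corresponding Suv39h libraries. The bin was in A in every library, and the lowest value was that of Suv39h DKO. Dnmt3a, a de novo DNA methyltransferase gene, lies in the bin chr12:3800001-3900000, whose score was between 0.0454 and 0.0497 in all 8 libraries. None of 10 pluripotency genes, among them Pou5f1, Sox2 and Nanog, lay in the interval.

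The 4 proximal bins with satellite words were examined in each library. Only the bin on chromosome 9 had more matches than the 414 words searched, so the others held little satellite sequence. How far reads from these repeats passed the mapping-quality filter of the authors was not tested. The bin with 11091 matches, chr9:3000001-3100000, had -0.00320 in Suv39h DKO + UNC, compared with -0.0225 to -0.0136 in the other 7 libraries. In chr4:3000001-3100000, with 66 matches, Suv39h DKO + UNC had 0.0108 and the others -0.00506 to 0.00415. In chr11:3100001-3200000, with 299 matches, it had 0.0370 and the others 0.0188 to 0.0311. Suv39h DKO + UNC was thus the highest library in 3 of the 4 bins. In chr12:3100001-3200000, with 80 matches, it had 0.00618, and Setdb1 KO was highest at 0.00904.

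Of the 5 satellite-bearing bins elsewhere, Suv39h DKO + UNC was highest in 2, and at chr2:98600001-98700000 it had 0.0260 against 0.000326 to 0.00750 in the other libraries. Among all 1247 proximal bins, Suv39h DKO + UNC was the highest library in 147 (11.8%). The satellite bins of chromosomes 4, 9 and 11 are the first bins of these chromosomes. In the other 15 first bins, which had fewer than 50 matches, Suv39h DKO + UNC was the highest library in 0 and the lowest in 6. The satellite bins were looked up by sequence and the highest library was noted after the values were seen, so no test is given.

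**Figure D5:**
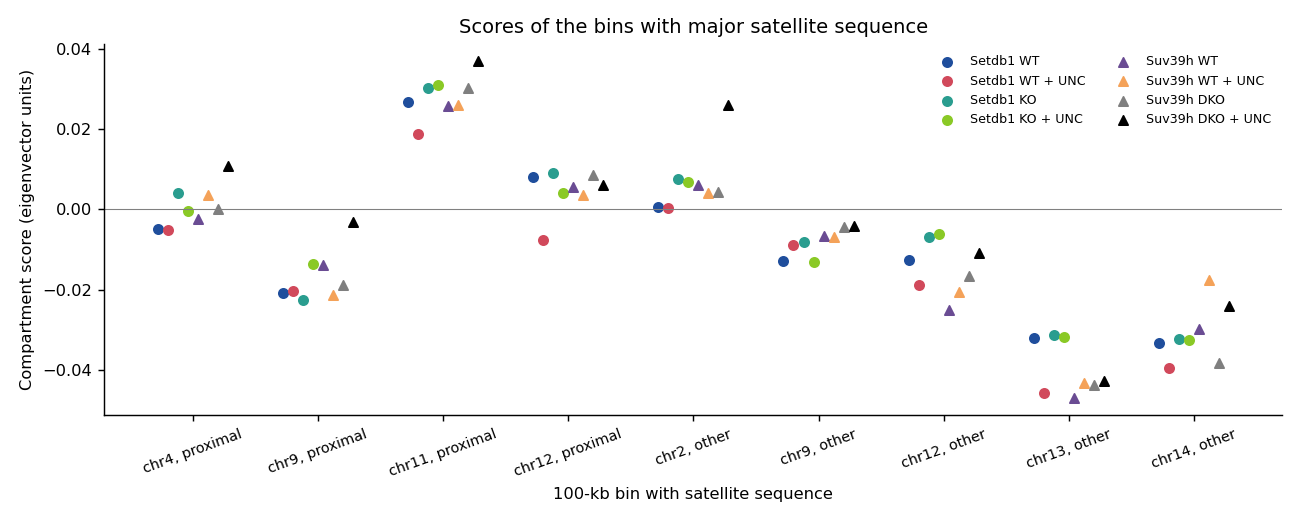
Compartment scores (eigenvector units) of the 9 bins with at least 50 matches to 16-base words of the chromosome 9 satellite unit, 4 of them proximal. Circles are Setdb1 libraries and triangles Suv39h libraries. Suv39h DKO + UNC (black) is the highest in the proximal bins of chromosomes 4, 9 and 11, at 0.0108, -0.00320 and 0.0370, and not in that of chromosome 12.

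Scores of the proximal bins varied more between any 2 libraries than those of the rest. The RMS difference was larger in the proximal than in the other bins in 28 of 28 pairs of libraries. For UNC0642, the log2 ratio of both RMS values was 0.56, 0.25, 0.26 and 0.29 in Setdb1 WT, Setdb1 KO, Suv39h WT and Suv39h DKO (mean 0.34, exact two-sided sign-flip test, n = 4, p = 0.125, the smallest that 4 pairs allow). For loss of SETDB1 or SUV39H1/2, it was 0.36 and 0.59, and 0.25 and 0.18, without and with UNC0642 (mean 0.34, same test, exact p = 0.125). The proximal bins were also richer in repeat-masked bases (38.4%, against 33.0% in the other bins). When only bins with less than 35% masked bases were kept, 568 of them proximal, the mean log2 ratios were 0.13 for UNC0642 and 0.11 for gene loss (exact p = 0.125 and 0.375). The part of sequencing depth was not tested, since the score files carry none and the read numbers of the libraries were not used here.

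Chromosome 1, which was set aside, differed from the other chromosomes in the contrasts with Suv39h WT. Its 70 bins below 10 Mb were higher in Suv39h WT than in Setdb1 WT by 0.0168 on average, and 68.6% of them by at least 0.01. They fell in Suv39h DKO (-0.00966), Suv39h WT + UNC (-0.0112) and Suv39h DKO + UNC (-0.0220) against Suv39h WT. In the Setdb1 line, they moved the same way as the proximal bins of chromosomes 2 to 19 in the contrasts that use Setdb1 WT + UNC. They fell by 0.00502 in Setdb1 WT + UNC against Setdb1 WT, where 15.7% of them fell by at least 0.01. Between both libraries with UNC0642, they were higher in Setdb1 KO by 0.00566, and 22.9% of them rose. Without that library, Setdb1 KO against Setdb1 WT had a mean change of 0.000233 on chromosome 1, with 0 bins rising and 1 falling, and Setdb1 KO + UNC against Setdb1 WT had 0.000639, with 1 rising and 1 falling.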

How the data were processed

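The authors aligned DpnII Hi-C reads of mESCs to mm10 with the 4DN Hi-C pipeline (version 43), kept alignments with mapping quality above 10 and deposited, per library, the first eigenvector score of KR-normalised 100-kb maps made with Juicer Tools. The deposited scores average 0 on each chromosome, so only redistribution within a chromosome is visible, and the score files hold no read depth; the read numbers of the libraries were not used here. Which repeat of the experiment, or whether a pool, was deposited is not stated in the sources used here.

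Bins scored in all 8 libraries were used as deposited. Distances count from the first scored bin. Coordinates are 1-based, and genes are from GENCODE vM21. Repeat masking, GC and sequences are from RefSeq GRCm38.p6. limma 3.58.1 (R 4.3.3) fitted groups and UNC0642 with a block per background for bins and tiles, with Benjamini-Hochberg adjustment, and was tested on simulated data. In that test, bins changed by 0.01 were not recovered (0%), and those changed by 0.02 were recovered in 74% (UNC0642), 43.5% (SETDB1 loss) and 48% (SUV39H1/2 loss). Tiles changed by 0.01 were recovered in 100% (UNC0642 and SETDB1 loss) and 95% (SUV39H1/2 loss). The simulated spread was drawn from all bins or tiles, so recovery among the proximal ones was not measured. In the fit to the real scores of all 8 libraries, the rise of 0.0115 on chromosome 18 after SETDB1 loss was not called. Shifts were tested by exact two-sided sign flips over pairs. Named were the 3 longest runs, or single bins, per direction and the 3 chromosomes with the largest rise and fall. The members and lists were chosen with earlier results of these data known. Alternatives covered scaling, thresholds, windows and left-out pairs.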

Additional observations from a re-analysis of the deposited data

How the results depend on the processing

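The score files carry no depth, so no counting error is given, and 1 library per group limits every comparison. The shift after SUV39H1/2 loss was near 0 (2.75e-05) and turned to -0.000185 with bins below 5 Mb and to -0.000449 after quantile normalization; over the pairs left out it ranged from -0.000243 to 0.000298. The UNC0642 shift ranged from -0.00122 to 7.10e-05 when single pairs were left out, with the change of sign when the Setdb1 WT pair was absent, and the SETDB1 shift from 0.000775 to 0.00434. The SETDB1 shift was 0.00387 with bins below 5 Mb. Without chromosomes 9, 13 and 18, the SETDB1 and UNC0642 shifts shrank to 0.00115 and -0.000362. Leaving out pairs kept the log2 size ratios between 0.27 and 0.37 (UNC0642) and between 0.26 and 0.40 (gene loss). No proximal bin or tile was called under any alternative, except 3 tiles (4 in all) for SETDB1 loss when only the 4 libraries of the line were fitted, with 1 residual degree of freedom, and 1 tile, on chromosome 18, when Setdb1 WT + UNC was left out, an alternative chosen after seeing the data. With trend and robust moderation, 5 of the 18 proximal tiles passed an unadjusted p under 0.05 for SETDB1 loss, against 20.7% of all tiles.

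Shares of proximal bins changed in either direction moved with the threshold and the bin size. At 0.01, the share ran from 4.01% (UNC0642 in Setdb1 KO cells) to 24.2% (SETDB1 loss under UNC0642), against 1.69% and 12.9% of all bins. It was 18.1% (against 8.13%) for Setdb1 WT + UNC and 19.6% (against 12.0%) for Suv39h WT, both against Setdb1 WT. At a change of at least 0.02, they were 2.97% for Setdb1 WT + UNC against Setdb1 WT, 0.241% for Setdb1 KO and 0.160% for Setdb1 KO + UNC against the same library, 0.0802% for UNC0642 in Setdb1 KO cells and 7.30% for SETDB1 loss under UNC0642. For the Suv39h lines, they were 0.561% for WT + UNC and 0.802% for DKO against WT, 0.962% for DKO + UNC against WT, 1.2% for DKO + UNC against DKO and 0.401% for DKO + UNC against WT + UNC, and 3.29% for Suv39h WT against Setdb1 WT. Over all bins, the shares at 0.02 were, in this order, 0.572%, 0.0167%, 0.0459%, 0.0125%, 1.73%, 0.0959%, 0.288%, 0.546%, 0.292%, 0.204% and 1.19%. With 500-kb means, they were, in the same order, 11.5%, 0%, 0.397%, 0.397%, 22.2%, 0.397%, 1.98%, 1.59%, 1.98%, 0.794% and 11.9%, against 3.05%, 0.0623%, 0.125%, 0.0208%, 7.44%, 0.229%, 0.665%, 2.10%, 0.623%, 0.914% and 4.76% of all 500-kb means. Below 5 Mb, they rose to 23.4% for Setdb1 WT + UNC against Setdb1 WT, 29.6% for SETDB1 loss under UNC0642 and 23.4% for Suv39h WT against Setdb1 WT. Without chromosomes 9, 13 and 18, chosen after seeing the data, those 3 shares were 11.5%, 16.1% and 15.5%, against 5.99%, 10.2% and 10.5% of all bins. The shares then were 4.15% (KO) and 4.73% (KO + UNC) against untreated Setdb1 WT, with 1.70% and 1.99% of all bins. For Suv39h DKO + UNC, they were 9.06% against Suv39h WT and 7.43% against Suv39h WT + UNC, with 8.91% and 6.10% of all bins. All other alternatives, such as scaling by the RMS or restoring the implied chromosome mean, left the shares within their 95% Wilson intervals. The limit of 35% masked bases was also chosen after seeing the data.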
